A study of Homo sapiens with 6 samples.

Results

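The genes examined here encode the machinery that displays peptides on MHC class I molecules, and they were the 9 rows of the deposited gene table named HLA-B, HLA-C, HLA-E, HLA-F, B2M, TAP1, TAP2, TAPBP and NLRC5, out of 26899 genes listed. All 9 passed the filter on low counts and were among the 15299 genes tested. They were measured by sequencing of polyadenylated RNA from HK-2, a widely used cell line that derives from the proximal tubule of a human kidney and carries genes of a human papillomavirus. Of the 6 libraries, 3 were labelled wild type in their titles and shCtrl in their descriptions (control below), and 3 were labelled ANXA2 knockdown and shANXA2 (knockdown below). Both sets came from the same line grown in serum-containing medium, and plasmids were introduced with a lipid reagent. The time between transfection and harvest, the number of cell clones and whether replicates were separate cultures were not given in the sources used here, so p-values measure only the spread between these libraries.

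A class I molecule is an HLA heavy chain held together with the invariant light chain beta-2-microglobulin, and it carries a short peptide to the cell surface for inspection by T cells and natural killer cells. The peptides are cut in the cytosol by proteasomes, pumped into the endoplasmic reticulum by the TAP1-TAP2 transporter and loaded with the help of tapasin, the product of TAPBP. NLRC5 switches on the genes of the pathway, and interferons raise most of them. In kidney tubule epithelium these genes are active at rest and rise during inflammation and graft rejection.

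The libraries held 24231267 to 34561675 counted reads, and the members held between 210 reads (NLRC5, control replicate 1) and 27649 reads (B2M, knockdown replicate 1). ANXA2 itself, the gene named in the labels, was not detectably lower, at 1539 ± 21.3 CPM (read counts scaled to a common library depth) in knockdown and 1598 ± 119 CPM in control (SD, n = 3), and the log2 fold change was -0.05 (SE 0.075, adjusted p 0.848 by the quasi-likelihood test of edgeR, with adjustment after Benjamini and Hochberg). The 95% interval of that change reached from -14.33% to 8.286%. Knockdown and control are therefore names of labels below, and every direction is a difference between labelled sets of libraries. In RNA from whole cultures, fewer cells with a transcript and less transcript per cell cannot be told apart. Of 19 kidney epithelial and proximal tubule markers, 17 were listed and 10 were tested. Among the abundant ones were PAX8 at 477.5 ± 117 CPM, KRT8 at 1099 ± 218 CPM and the tubule enzyme gene GGT1 at 229.6 ± 10.0 CPM in control (SD, n = 3). Several other defining genes were close to absent, with totals over the 6 libraries of 1 read for LRP2, 4 for AQP1, 14 for HNF4A, 18 for ANPEP, 34 for CUBN and 42 for the epithelial cadherin gene CDH1.

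The sequences upstream of the start sites are shown first, because interferons act on class I genes through short promoter motifs and the letters show which members hold them. The RefSeq promoter table (build GRCh38.p14) held 7 of the 9 members. The 200 bases before the start site are printed 5′ to 3′ on the strand of the gene. Capitals mark the interferon-response type motifs GAAANNGAA and GAANNGAAA and the motif CCAAT, each searched on both strands, and overlapping matches run together.

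HLA-B: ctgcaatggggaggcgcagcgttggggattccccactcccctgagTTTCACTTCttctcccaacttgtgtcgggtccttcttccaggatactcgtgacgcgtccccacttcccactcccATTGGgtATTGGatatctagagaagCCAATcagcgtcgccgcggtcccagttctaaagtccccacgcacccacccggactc
HLA-C: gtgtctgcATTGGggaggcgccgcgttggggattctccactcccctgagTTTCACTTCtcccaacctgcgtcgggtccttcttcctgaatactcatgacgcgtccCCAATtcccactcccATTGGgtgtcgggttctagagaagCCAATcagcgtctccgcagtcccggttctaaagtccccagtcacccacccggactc
HLA-F: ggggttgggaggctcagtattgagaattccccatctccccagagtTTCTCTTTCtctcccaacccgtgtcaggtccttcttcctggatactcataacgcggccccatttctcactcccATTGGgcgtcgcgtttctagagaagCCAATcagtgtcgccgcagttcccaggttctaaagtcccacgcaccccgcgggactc
B2M: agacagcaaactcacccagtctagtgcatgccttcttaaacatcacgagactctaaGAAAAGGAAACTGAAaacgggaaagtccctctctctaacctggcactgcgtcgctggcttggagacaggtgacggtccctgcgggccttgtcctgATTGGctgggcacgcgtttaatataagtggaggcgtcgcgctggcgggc
TAP1: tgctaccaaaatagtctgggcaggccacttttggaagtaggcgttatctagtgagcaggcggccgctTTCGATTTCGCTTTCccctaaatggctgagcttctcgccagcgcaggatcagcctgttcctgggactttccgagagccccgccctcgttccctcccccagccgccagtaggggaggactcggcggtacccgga
TAP2: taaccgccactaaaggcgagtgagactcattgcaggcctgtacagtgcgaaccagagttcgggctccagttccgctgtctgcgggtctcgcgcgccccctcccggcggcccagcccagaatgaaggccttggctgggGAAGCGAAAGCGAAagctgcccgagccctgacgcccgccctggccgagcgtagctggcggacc
TAPBP: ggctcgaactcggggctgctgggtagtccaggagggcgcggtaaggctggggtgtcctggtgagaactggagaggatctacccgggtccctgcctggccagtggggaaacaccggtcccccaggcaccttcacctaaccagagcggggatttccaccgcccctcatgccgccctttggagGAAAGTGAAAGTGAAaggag

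The windows lie at chr6:31357180-31357379 (minus strand) for HLA-B, chr6:31272093-31272292 (minus) for HLA-C, chr6:29723234-29723433 (plus) for HLA-F, chr15:44711317-44711516 (plus) for B2M, chr6:32853705-32853904 (minus) for TAP1, chr6:32838740-32838939 (minus) for TAP2 and chr6:33314079-33314278 (minus) for TAPBP. For TAP1, which had 2 listed start sites, the one farther upstream was used. At least 1 interferon-type motif occurred in all 7 windows, against 9.87% of the 35116 windows of that length in the table. In HLA-B and HLA-F the match began at position -155, counted back from the start site, and in HLA-C at -151, all on the opposite strand, so the 3 heavy chain genes carried it at nearly the same place. B2M and TAP1 each had a pair of overlapping matches, from -144 and from -133. In TAP2 the matches began at -63 and in TAPBP at -20, nearer to the start site. CCAAT occurred in HLA-B (3 matches), HLA-C (4), HLA-F (2) and B2M (1), and there was no match in the windows of TAP1, TAP2 and TAPBP, while 28% of all windows held it. The motif letters were chosen with these sequences in view, and a match is a description of the letters only.

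**Figure D1:**
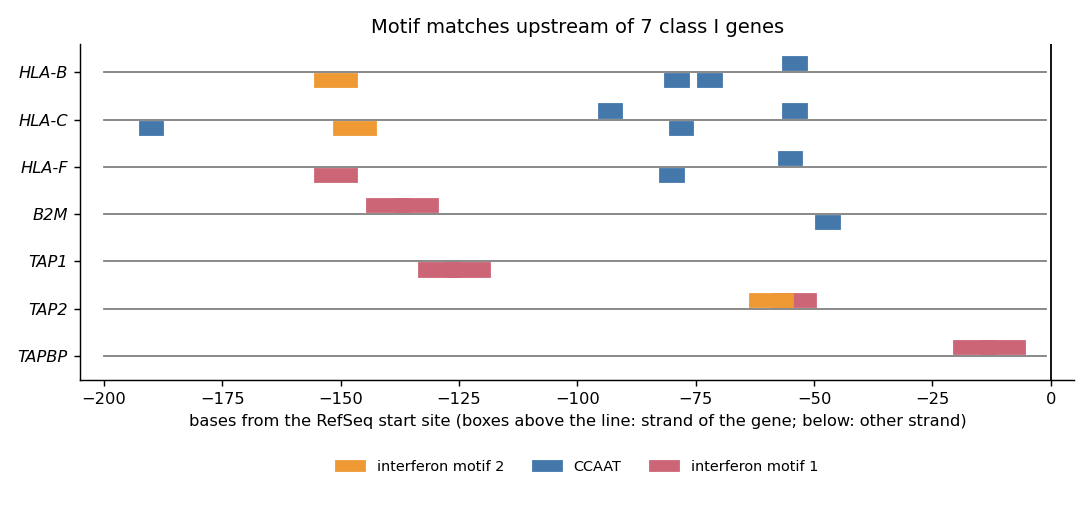
Positions of motif matches in the 200 bases upstream of the RefSeq start sites of 7 class I genes. The horizontal axis is the distance from the start site in bases, boxes above a line are on the strand of the gene and boxes below it on the other strand, and each of the 7 windows holds an interferon-type motif. These motifs start between -155 and -127 in HLA-B, HLA-C, HLA-F, B2M and TAP1 and between -63 and -14 in TAP2 and TAPBP.

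In order to place the members by abundance, their levels were compared per transcript length with the deposited FPKM values (fragments scaled for transcript length and library depth), averaged over all 6 libraries. B2M was the most abundant at 304.8 FPKM, ranking 185 among all listed genes, and HLA-B followed at 224.8 FPKM. HLA-E (108.5 FPKM), HLA-C (101.7 FPKM) and TAPBP (81.6 FPKM) formed a middle level. The ranges of HLA-E and HLA-C over the libraries overlapped, as did those of HLA-C and TAPBP, so their order does not exceed the spread. TAP1 stood at 17.7 FPKM, HLA-F at 6.64 FPKM and TAP2 at 4.95 FPKM, where the ranges of HLA-F and TAP2 overlapped. NLRC5 was the least abundant at 1.35 FPKM. All other neighbours in this order had ranges that did not overlap.

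To ask whether the pathway differed between the labels, all 9 members were read from the edgeR fit over the 15299 tested genes. None passed an adjusted p of 0.05, nor did any other tested gene (0% called), and at an unadjusted p under 0.05 the fit held 590 higher and 661 lower genes. All 9 members had a log2 fold change above 0, against 49.0% of all tested genes, and their median was 0.30, against -0.01 over all tested genes. The 3 knockdown libraries lay entirely above the 3 control libraries for 6 members (HLA-B, HLA-C, HLA-F, B2M, TAP1 and NLRC5), against 7.94% of tested genes. For 4 members (HLA-B, HLA-C, B2M and TAP1) the unadjusted p was under 0.05 in the higher direction, against 3.86% of tested genes. Without knockdown replicate 3 only HLA-B and HLA-C kept an unadjusted p under 0.05 in that direction (2 members, against 3.72% of genes). Omitting control replicate 1 gave 5, with HLA-F added, against 5.9% of genes. Each other omission left 4, against 1.65% to 4.26% of genes. The 4 were not always the same, since NLRC5 took the place of B2M without control replicate 2. These members were chosen with earlier results of the same libraries known and are not independent of each other, so these counts are a description and no test of the list was made. No member differed by as much as 2-fold in its estimate.

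**Figure D2:**
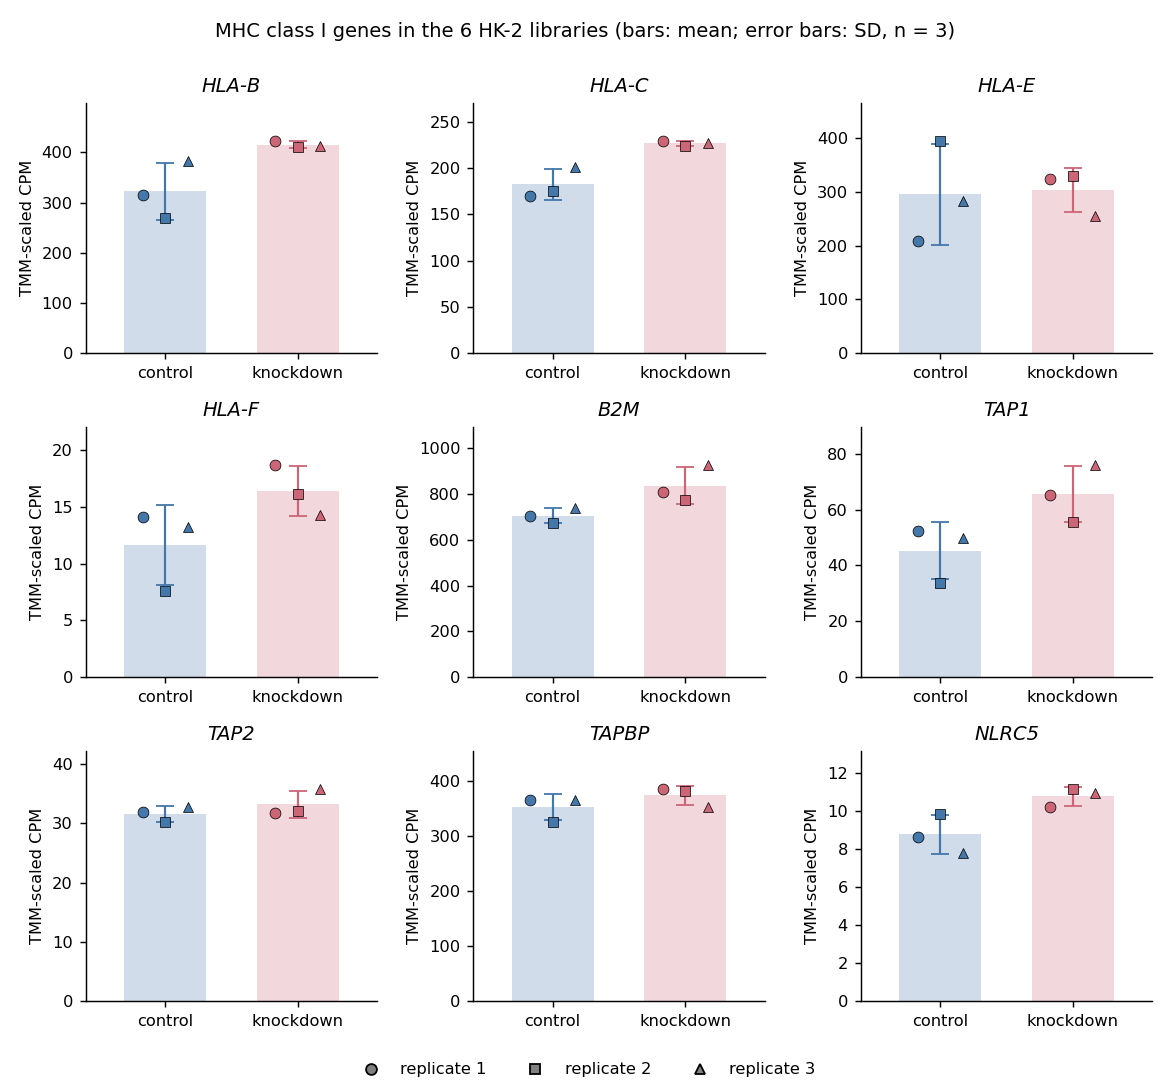
TMM-scaled CPM of the 9 class I genes in each library, with control in blue and knockdown in red. Symbols are replicates 1 to 3, bars are means and error bars are SD (n = 3). The groups do not overlap for HLA-B, HLA-C, HLA-F, B2M, TAP1 and NLRC5, and they overlap for HLA-E, TAP2 and TAPBP.

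Among the heavy chains, the classical genes HLA-B and HLA-C, which present peptides to cytotoxic T cells, had groups that did not overlap. HLA-B (ENSG00000234745.9, chromosome 6 from 31353872 to 31367067 in GENCODE release 44 on GRCh38, minus strand) had 315.4, 269.6 and 382.0 CPM in control replicates 1, 2 and 3, and 422.6, 409.9 and 413.5 CPM in the knockdown replicates. All knockdown values were higher than all control values, and the knockdown values were far closer together (coefficient of variation 1.58% against 17.5%). Of the 100-base windows of HLA-B transcripts, 38.9% also occur in transcripts of other GENCODE genes that have no row in the table used here. The mean was 415.4 ± 6.56 CPM against 322.3 ± 56.5 CPM (SD, n = 3), with a log2 fold change of 0.37 (SE 0.122) and an adjusted p of 0.599. Omitting control replicate 2 gave an estimate of 0.25, and omitting control replicate 3 gave 0.51. HLA-C (ENSG00000204525.14, chromosome 6 from 31268749 to 31272130, minus strand) had 170.0, 175.6 and 201.6 CPM in control and 229.3, 223.9 and 227.0 CPM in knockdown. Its groups were again separate, by 22.3 CPM between the nearest libraries, and the knockdown libraries varied by 1.2% against 9.23%. The log2 fold change was 0.31 (SE 0.094) and the adjusted p was 0.599, where HLA-C ranked 205 among the 15299 genes by p. An exact two-sided permutation test gave p = 0.1 for each of these genes, the smallest value that 3 against 3 libraries allow.

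The non-classical heavy chains HLA-E, whose product displays leader peptides of other class I chains to natural killer cells, and HLA-F did not follow a single pattern. HLA-E (ENSG00000204592.8, chromosome 6 from 30489509 to 30494194, plus strand) had 208.3, 394.2 and 282.6 CPM in control and 324.2, 328.7 and 255.5 CPM in knockdown. The control libraries spanned the whole knockdown range, with control replicate 1 lowest and control replicate 2 highest of all 6. Its log2 fold change was 0.04 (SE 0.205, adjusted p 0.969), and the 95% interval of the change reached from -25.51% to 41.4%. Leaving out control replicate 1 gave a log2 fold change of -0.16 and leaving out control replicate 2 gave 0.30. HLA-F (ENSG00000204642.13, chromosome 6 from 29722775 to 29738528, plus strand) was much rarer, with 14.06, 7.587 and 13.23 CPM in control and 18.67, 16.14 and 14.27 CPM in knockdown. The groups were apart by only 0.209 CPM, which separates knockdown replicate 3 from control replicate 1. The log2 fold change was 0.50 (SE 0.232, adjusted p 0.615), and it was 0.27 without control replicate 2, the lowest library for HLA-F. HLA-F held 2585 reads in all, and HLA-F-AS1 (260 reads) and RPL23AP1 (394 reads) overlap it on the opposite strand. The use of strand in counting was not given in the sources used here, so reads of the overlap cannot be told apart.

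Summed over these 4 heavy chain genes, the level was 961.2 ± 44.9 CPM in knockdown and 811.3 ± 91.1 CPM in control (SD, n = 3). Knockdown libraries had 994.9, 978.6 and 910.2 CPM and control libraries 707.8, 846.9 and 879.3 CPM, so the groups did not overlap (exact two-sided permutation p 0.1, the smallest possible). The make-up of the sum per transcript length differed in 1 library, since HLA-E supplied 35.9% of the summed FPKM in control replicate 2 and between 19.95% and 24.4% in the other 5. HLA-B supplied 41.3% in that library and between 51.2% and 54.3% elsewhere. The group means of the HLA-E share were 22.7% ± 2.38 and 26.7% ± 8.03 (SD, n = 3; exact permutation p 0.7), within the spread between replicates.

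The light chain gene B2M (ENSG00000166710.17, chromosome 15 from 44711358 to 44718851, plus strand), which is needed by every class I heavy chain, had 702.4, 675.5 and 739.0 CPM in control and 810.2, 773.5 and 926.7 CPM in knockdown. Each knockdown library exceeded each control library, and knockdown replicate 3 stood highest. The log2 fold change was 0.25 (SE 0.089, adjusted p 0.602), an estimate of 18.6% higher. Its 95% interval, which is not adjusted over the tested genes, was 3.19% to 36.3%. Without knockdown replicate 3 the log2 fold change fell to 0.17. The ratio of summed heavy chain FPKM to B2M FPKM was 1.47 ± 0.179 in knockdown and 1.43 ± 0.121 in control (SD, n = 3; exact permutation p 0.6), so no shift in the balance of heavy and light chain transcripts was detectable. That ratio was lowest in knockdown replicate 3 (1.27) and control replicate 1 (1.29) and between 1.49 and 1.6 in the other 4 libraries.

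The transporter subunits were examined next. TAP1 (ENSG00000168394.10, chromosome 6 from 32845209 to 32853816, minus strand) had 52.27, 33.71 and 49.89 CPM in control and 65.05, 55.63 and 75.92 CPM in knockdown. The nearest libraries, knockdown replicate 2 and control replicate 1, were 3.37 CPM apart. TAP1 had the largest estimate of the 9 members, with a log2 fold change of 0.53 (SE 0.18, adjusted p 0.599), or 44.8% higher. Its 95% interval, again not adjusted over the tested genes, was 9.36% to 91.6%. The log2 fold change fell to 0.36 without control replicate 2, the lowest library, and was 0.65 without control replicate 1. In edgeR without the filter on low counts TAP1 alone among the members passed, with an adjusted p of 0.0178, against 0.328 by DESeq2 and a range of 0.0178 to 0.988 over all alternatives.

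TAP2 (ENSG00000204267.13, chromosome 6 from 32821833 to 32838739, minus strand), the partner that completes the pump, had 31.89, 30.16 and 32.84 CPM in control and 31.71, 32.1 and 35.81 CPM in knockdown, and the groups overlapped. Its log2 fold change was 0.07 (SE 0.109, adjusted p 0.867), with a 95% interval of the change from -11.53% to 24.5%, and the estimate was 0.014 without knockdown replicate 3. A second gene row, named XXbac-BPG246D15.9, overlaps TAP2 on the same strand and held more reads than TAP2 itself, 71.4 ± 4.09 CPM in knockdown and 70.1 ± 2.35 CPM in control (SD, n = 3). In GENCODE release 44, 28.9% of the 100-base windows of TAP2 transcripts also occur in transcripts of another counted gene, so TAP2 values depend on how such reads were assigned. Added together, both rows gave 104.6 ± 6.31 CPM and 101.8 ± 1.1 CPM (SD, n = 3; exact permutation p 0.8), again overlapping. The ratio of TAP1 FPKM to TAP2 FPKM was 4.28, 3.62 and 4.43 in knockdown and 3.42, 2.34 and 3.17 in control, which did not overlap. Its means were 4.11 ± 0.43 and 2.975 ± 0.568 (SD, n = 3; exact permutation p 0.1, the smallest possible).

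TAPBP (ENSG00000231925.11, chromosome 6 from 33299694 to 33314284, minus strand), whose product tapasin bridges the transporter and the empty heavy chain, had 365.6, 325.6 and 365.8 CPM in control and 385.0, 382.1 and 353.1 CPM in knockdown. Knockdown replicate 3 lay within the control range. Its log2 fold change was 0.08 (SE 0.087, adjusted p 0.796), and the 95% interval of the change, from -7.479% to 21.4%, was the narrowest of the members. Without control replicate 2 the estimate was 0.032. NLRC5 (ENSG00000140853.15, chromosome 16 from 56989485 to 57083531, plus strand), the transactivator of class I genes, had 8.609, 9.851 and 7.801 CPM in control and 10.17, 11.14 and 10.94 CPM in knockdown. The groups were separate by 0.318 CPM, between knockdown replicate 1 and control replicate 2. Its log2 fold change was 0.30 (SE 0.159, adjusted p 0.636) on 210 to 368 reads per library, and it was 0.16 by limma-trend on log2(FPKM + 1), a scale that understates the change of low genes.

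How the members varied over the 6 libraries was described by correlating their log2 CPM. All genes of a library share its depth and scaling, so these values carry no test. The group means were not removed, so the difference between the labels enters each r. The mean member profile, with each gene scaled by its own mean and SD, was -0.99 to -0.19 in control and 0.49 to 0.69 in knockdown. HLA-B and HLA-C ran together most closely with the mean of the other members (r = 0.939 and 0.942, n = 6), followed by TAP1 (0.855) and B2M (0.851). HLA-E alone had a negative value (r = -0.234), which over 6 libraries is too weak to show an opposite course. Control replicate 2 was the lowest of the 6 libraries for 6 members, and it was the highest for HLA-E. Knockdown replicate 1 was the highest for 4 members and knockdown replicate 3 for 3. By rule, the 8 tested genes outside the list with the highest correlation to the mean member profile were BACE2 (r = 0.996), MGAT4B (0.995), INPP5J (0.991), NANOS1 (0.99), ETV7 (0.989), ZNF561-AS1 (0.989), NOP14-AS1 (0.988) and PCCB (0.988), picked as the extremes of all tested genes with a mean of at least 1 CPM. Of these, BACE2, an aspartyl protease, had 93.8 CPM in knockdown against 78.1 CPM in control (log2 fold change 0.26, adjusted p 0.599). The log2 fold changes of the 8 ran from 0.24 (PCCB) to 1.075 (INPP5J), and none passed an adjusted p of 0.05. Whether these genes follow the members within a group was not tested.

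**Figure D3:**
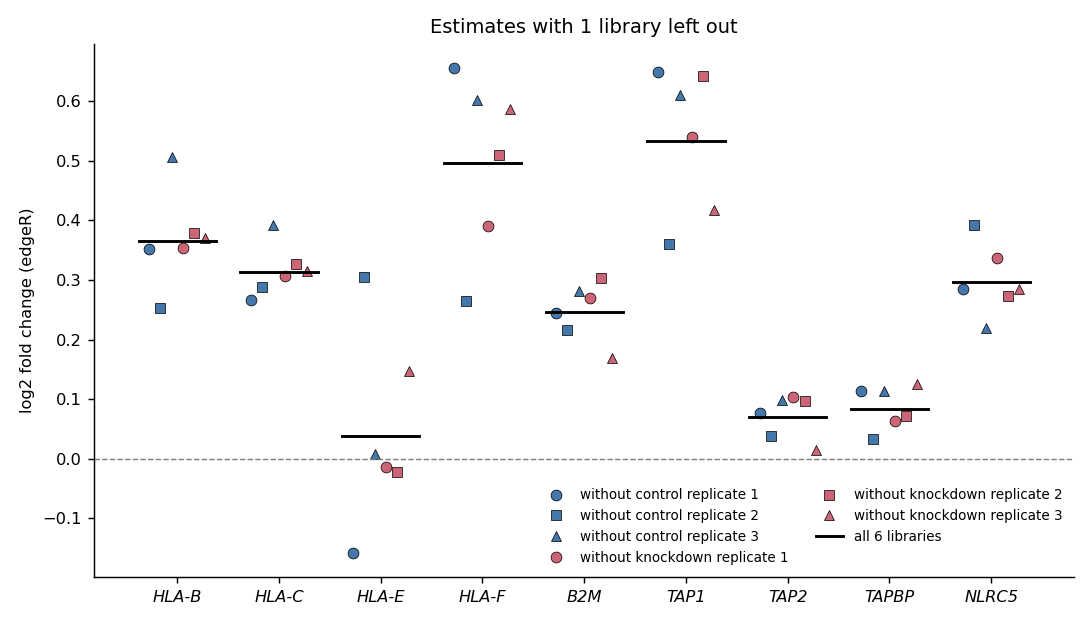
Log2 fold change of each class I gene by edgeR (vertical axis) with 1 library left out in turn (symbols) and with all 6 libraries (black bars). HLA-E spans -0.16 to 0.30 and crosses 0, whereas the other 8 members stay above 0 in each omission.

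The rest of the pathway was described from 4 lists of genes, of which no member passed an adjusted p of 0.05. The immunoproteasome and its activator, which cut peptides suited to class I, had 5 of 5 genes above 0, against 49.0% of all tested genes. Their median was 0.24 on the log2 scale. PSMB9 and PSME1 were the 2 with an unadjusted p under 0.05 in the higher direction, against 3.86% of all tested genes. PSMB9 was 50.9 ± 1.28 CPM in knockdown and 41.5 ± 6.16 CPM in control (SD, n = 3; log2 fold change 0.29, adjusted p 0.608), and its groups did not overlap. PSMB8 was 139.5 ± 11.2 CPM against 116.6 ± 16.6 CPM (SD, n = 3; 0.26, adjusted p 0.615), and its groups overlapped. The gene of PSMB9 overlaps TAP1 on the opposite strand, and the use of strand in counting was not given in the sources used here, so reads of the overlap cannot be told apart.

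Among 10 tested genes of peptide loading and folding in the endoplasmic reticulum, 5 were above and 5 below 0, with a median of -0.01. Of these, 1 was higher (GANAB) and 1 lower (UGGT1) at an unadjusted p under 0.05, where all 15299 tested genes held 590 higher and 661 lower. GANAB, the catalytic subunit of glucosidase II, had the largest positive estimate (607.7 ± 27.5 CPM against 520.3 ± 27.3 CPM, SD, n = 3; log2 fold change 0.22, adjusted p 0.599), and BCAP31, an export receptor of the membrane, came next (0.10, adjusted p 0.741). UGGT1, the folding sensor of glycoproteins, had the largest negative one (93.9 ± 13.1 CPM against 120.1 ± 16.4 CPM, SD, n = 3; -0.35, adjusted p 0.605), followed by the lectin chaperone CANX (-0.20, adjusted p 0.661). Calreticulin (CALR), which sits in the loading complex with tapasin, had 2505 ± 80.4 CPM and 2463 ± 177 CPM (SD, n = 3).

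Transcription factors known to act on class I promoters showed 6 of 10 tested genes above 0, with a median of 0.08, and CIITA, with 16 reads in all, was not tested. None of the 10 had an unadjusted p under 0.05. NFYA, a subunit of the complex that binds CCAAT, was at 37.3 ± 1.31 CPM against 31.6 ± 2.83 CPM (SD, n = 3; log2 fold change 0.24, adjusted p 0.615), and its partner NFYB was at 16.7 ± 1.85 CPM against 19.7 ± 1.49 CPM (SD, n = 3; -0.24, adjusted p 0.647). RELA (0.14, adjusted p 0.700) and RFXAP (-0.24, adjusted p 0.849) were the other 2 named by rule. IRF1, an activator induced by interferon, was at 74.4 ± 0.568 CPM against 70.5 ± 8.11 CPM (SD, n = 3; 0.08, adjusted p 0.846). IRF1 was named after its values were seen.

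Class I-like molecules were evenly divided, with 5 of 10 tested genes above 0 and a median of 0.01. Here too 1 was higher (FCGRT) and 1 lower (ULBP1) at an unadjusted p under 0.05, where all tested genes held 590 higher and 661 lower. FCGRT, the heavy chain of the neonatal Fc receptor, which also pairs with beta-2-microglobulin, was at 37.5 ± 5.3 CPM against 29.9 ± 3.38 CPM (SD, n = 3; log2 fold change 0.33, adjusted p 0.608). ULBP3 followed (0.20, adjusted p 0.843). ULBP1, a stress ligand of the natural killer receptor NKG2D, was at 2.08 ± 0.431 CPM against 3.54 ± 0.627 CPM (SD, n = 3; -0.76, adjusted p 0.605) with groups that did not overlap, and RAET1G had an estimate of -0.47 on 79 reads in all (adjusted p 0.881). HLA-G had 7 reads over the 6 libraries and was not tested.

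**Figure D4:**
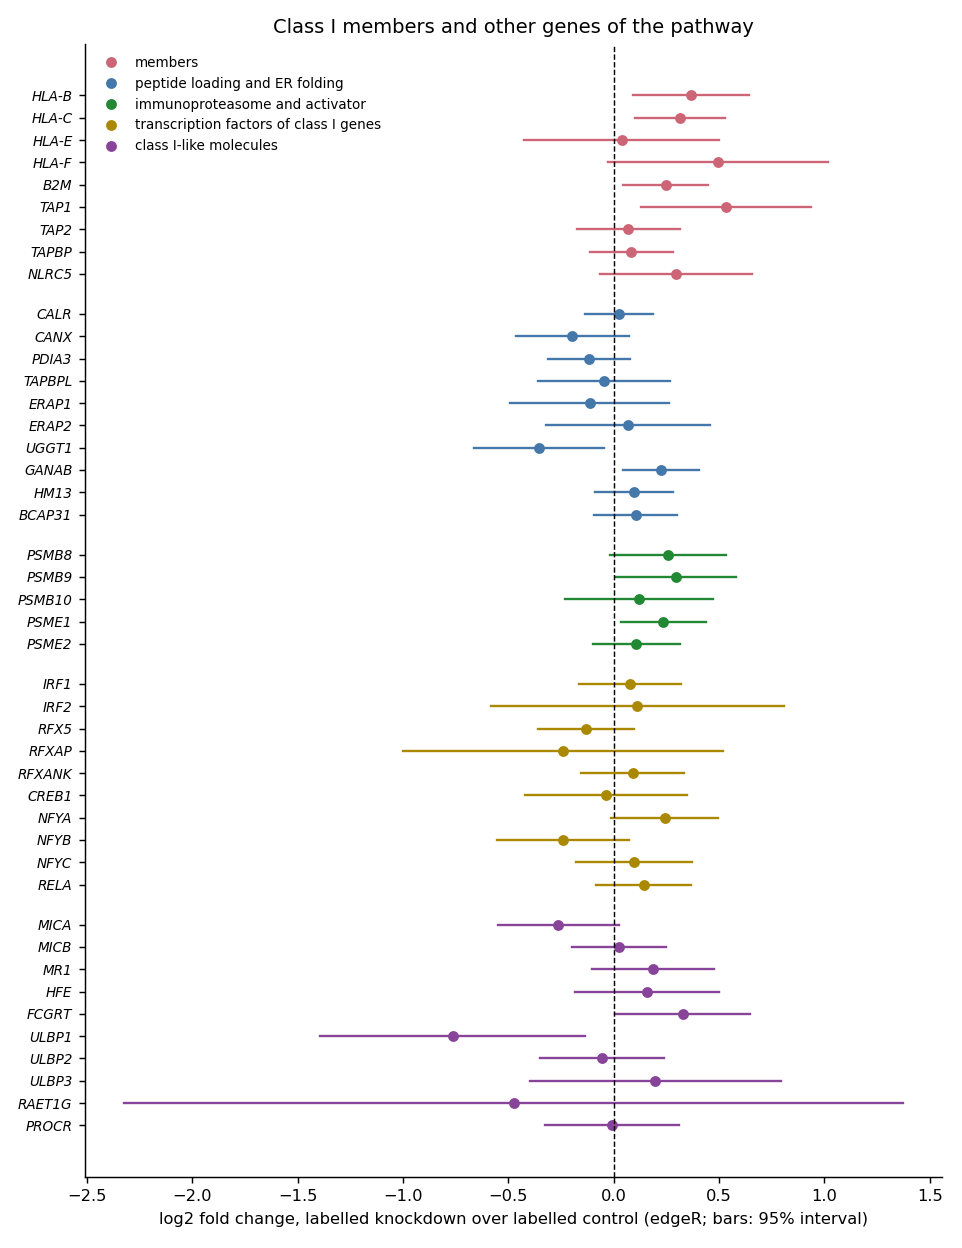
Log2 fold change of knockdown over control with its 95% interval (horizontal axis) for the 9 class I genes and the tested genes of 4 other pathway lists, by edgeR with n = 3 libraries per group. The estimates of the members and of the immunoproteasome list lie above 0, whereas those of the other 3 lists fall on both sides. Intervals are not adjusted for the number of genes tested.

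Of the members, 7 lie in the major histocompatibility complex on chromosome 6, between 29722775 and 33314284 in GRCh38. The 122 other tested genes inside that span had a median log2 fold change of 0.12, with 88 of them (72.1%) above 0, against 49.0% of all tested genes. At an unadjusted p under 0.05 there were 9 higher and 0 lower among them, where all 15299 tested genes held 590 higher (3.86%) and 661 lower. The groups were separate for 18 of them in the higher and 1 in the lower direction, where all tested genes held 1214 (7.94%) and 1178. Only the members were left out of these 122 genes, so any gene of the pathway lists inside the span is counted among them. They include PSMB9 and the row that overlaps TAP2, both described above, and PSMB9 is among the 9 and the 18. The difference between these 122 genes and the rest was not tested. The members outside the complex, B2M and NLRC5, had estimates of 0.25 and 0.30.

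Genes of other cell types were examined because immune cells express class I genes strongly. Of 16 leukocyte markers, 7 were listed in the table, while the other 9, among them PTPRC and CD3E, had no row there. The sum of the list was 6.06 to 8.75 CPM in knockdown and 4.25 to 6.74 CPM in control. Of its 4 tested genes, 3 had estimates above 0 and 0 passed an unadjusted p of 0.05. ITGAX, an integrin chain, was at 3.5 ± 0.78 CPM against 1.96 ± 0.928 CPM (SD, n = 3; log2 fold change 0.83, adjusted p 0.615) without overlap, and CD14 was at 2.83 ± 0.874 CPM against 1.99 ± 0.77 CPM (SD, n = 3). ITGAM had an estimate of 1.28 on 64 reads in all, and CSF1R had one of -0.24 on 95 reads. The T cell marker CD8A and the myeloid markers LYZ and FCER1G, with 19, 8 and 46 reads over all libraries, were not tested. Their means were lower in knockdown, at 0.0711, 0.0115 and 0.237 CPM, against 0.131, 0.0769 and 0.276 CPM in control. The 3 endothelial markers listed summed to at most 0.394 CPM in any library, and the 5 fibroblast markers listed to 29.5 to 38 CPM in control and 30.6 to 31.2 CPM in knockdown. The part of these markers in the class I values was not tested.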

How the data were processed

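Counts of sequencing reads per gene were deposited by the authors for 6 libraries of HK-2 cells, without normalisation, together with FPKM values deposited by the authors and rounded to 2 decimals. The submitters' processing notes name bcl2fastq, TopHat2 and edgeR and the build GRCh38. The counting program, annotation release, strand setting and treatment of reads matching several genes were not given in the sources used here. Heavy chain genes differ between people, and how reads of HK-2 alleles unlike the reference were mapped was not tested. In GENCODE release 44, no 100-base window of a member's transcripts occurred in another member.

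Depth was 24231267 to 34561675 counted reads. Each library was counted as 1 sample. Replicates within groups differed beyond sampling noise (chi-square per degree of freedom 10.3 to 54.2), which does not show whether they were separate cultures. Genes were filtered with edgeR 4.0.16 defaults (minimum count 10, total 15), scaled by TMM and tested with the quasi-likelihood test in R 4.3.3, two-sided, without covariates, with Benjamini-Hochberg adjustment over 15299 genes. CPM values were scaled by TMM. The fit was tested on simulated data in which every change was larger than the estimates of the members. It was not tested on smaller changes. Sums and ratios were compared by exact permutation (scipy 1.17.1). FPKM served for levels between genes. Likeness used log2 CPM with a prior count of 2. Alternatives were other scalings, no filter, DESeq2 1.42.0, limma 3.58.1, a replicate block and the omission of each library. In 2 of the lists 1 gene each is not reported here and was left out of the counts. Members, lists and rules were chosen with earlier results of these data known. Genes named were the members, ANXA2, in each pathway list those past adjusted p 0.05 or else the 2 largest estimates in each direction, and the 8 genes most like the members; any other gene was chosen after its values were seen.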

Additional observations from a re-analysis of the deposited data

How the results depend on the processing

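By edgeR 0 genes passed an adjusted p of 0.05 (1251 had an unadjusted p under 0.05), against 165 without the filter on low counts and 31 by DESeq2. Leaving out 1 library gave 0 to 4, and the 4 came without knockdown replicate 2. Without the filter 1 member passed (TAP1, log2 fold change 0.54, adjusted p 0.0178). Under the 16 other alternatives 0 members passed. The cause of these moves was not tested. Of 153 estimates of single members under alternatives, 149 kept their sign and their side of the threshold, 1 passed it and 3 changed sign. All 3 were HLA-E, at -0.16 without control replicate 1, -0.014 without knockdown replicate 1 and -0.022 without knockdown replicate 2, within a range of -0.1582 to 0.3046 over the 6 omissions.

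The difference in the ratio of heavy chain to B2M FPKM, 0.041 with all libraries, ranged from -0.02889 to 0.1436 when 1 library was left out. With the replicate number as a replicate block, 0 genes and 0 members passed, and TAP1 had 0.55 (adjusted p 0.693). Deviations of same-numbered libraries correlated at -0.0616, 0.118 and -0.203, so the numbers were not treated as pairs. Under the 3 other scalings the median of all tested genes stayed between -0.03 and 0.0091. At 3 libraries a group, a member differing by less than its interval could not be resolved.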
